A study of Mus musculus with 12 samples.

Results

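Macrophages carry families of surface receptors that read sugars, lipids or proteins on neighbouring cells and pass either a calming or a stimulating signal. Siglece, Siglec1, Cd33, Sirpa, Sirpb1c, Tarm1, Pirb, Pilra, Cd300a and Cd300lf are 10 such genes, from the Siglec, SIRP, PIR, PILR and CD300 families plus Tarm1. They were picked by name, all 10 were found among the 22294 genes of the table, and all 10 had a level high enough to be tested. They were chosen with results of these same libraries known. Their values are therefore given as a description with no p-value, and counts of them past a threshold support nothing.

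The samples were F4/80-positive cells, the macrophage fraction, taken with magnetic beads from mouse endometrium after enzymatic digestion, and their polyadenylated RNA was sequenced. There were 12 libraries in 4 groups of 3. Primed MSC mice had an intrauterine adhesion (IUA) model, a state of scar bands across the cavity of the uterus, and received mesenchymal stromal cells of human umbilical cord that had been primed with inflammatory cytokines. Control MSC mice had the same model and received control cells of that kind. IUA mice had the model alone, and Sham mice had a sham operation and are labelled untreated. The IUA libraries bear the name Matrigel. The labels do not say what the gel was for or whether other groups received it, so the gel, the model and the cells cannot be told apart in comparisons with IUA. Mouse strain, age and the cell dose are not given in the sources used here, and nothing states that replicates are separate animals, so the spread behind a p-value is that between libraries and may be technical.

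In paired receptor families, closely related genes encode an inhibitory form, whose tail carries motifs that recruit the phosphatases encoded by Ptpn6 (SHP-1), Ptpn11 (SHP-2) or Inpp5d (SHIP1), and an activating form, which has a short tail and borrows the signalling adaptor Tyrobp (DAP12) or Fcer1g (the Fc receptor gamma chain). Siglecs bind sialic acids, the sugars that cap many cell surface glycans. Sirpa binds Cd47, Pirb binds MHC class I, and Cd300a and Cd300lf bind membrane lipids exposed on dying cells.

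The promoters of 8 of the 10 genes, taken from RefSeq on GRCm38.p6, the assembly that mm10 names, were searched for 6 motifs on both strands within the 250 bases before each gene's start. GAGGAA, the letters that the myeloid factor PU.1 prefers, is shown because it matched the most of these promoters. It was found in 7 of the 8, with 3 matches each for Siglece and Pirb, 1 each for Cd33, Tarm1, Pilra, Cd300a and Cd300lf, and none for Sirpb1c. Of the promoters of 27025 genes, 23.1% held at least 1 match. The AP-1 motif TGANTCA and the NF-kB motif were found in 0 of the 8, where 6.87% and 0.337% of all promoters held them. The C/EBP motif TTGCNNAA was found in 2 (Pilra and Cd300a), the interferon response motif in 1 (Pilra) and the STAT motif TTCNNNGAA in 1 (Sirpb1c), where 9.55%, 3.04% and 7.18% of all promoters held them. Siglece and Pirb are shown because they had the most matches, and Tarm1 and Pilra because their levels were among the lowest in Sham. Sirpb1c, which was lower in Sham than Pilra, is not shown, so all the printed promoters hold a match. Capitals mark GAGGAA, or TTCCTC where the match is on the other strand. The windows are on the minus strand at chr7:43660162-43660411 (Siglece), chr7:3720383-3720632 (Pirb), chr7:3502625-3502874 (Tarm1) and chr5:137836279-137836528 (Pilra).
Siglece: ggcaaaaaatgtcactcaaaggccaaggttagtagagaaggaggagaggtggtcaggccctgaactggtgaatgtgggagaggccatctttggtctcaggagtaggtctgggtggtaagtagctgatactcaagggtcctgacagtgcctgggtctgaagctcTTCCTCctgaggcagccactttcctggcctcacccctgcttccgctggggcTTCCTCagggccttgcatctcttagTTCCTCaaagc
Pirb: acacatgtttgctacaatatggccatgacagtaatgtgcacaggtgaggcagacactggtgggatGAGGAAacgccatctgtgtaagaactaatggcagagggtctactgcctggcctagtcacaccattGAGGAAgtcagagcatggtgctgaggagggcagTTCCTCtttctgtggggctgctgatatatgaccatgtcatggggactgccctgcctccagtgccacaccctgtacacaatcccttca
Tarm1: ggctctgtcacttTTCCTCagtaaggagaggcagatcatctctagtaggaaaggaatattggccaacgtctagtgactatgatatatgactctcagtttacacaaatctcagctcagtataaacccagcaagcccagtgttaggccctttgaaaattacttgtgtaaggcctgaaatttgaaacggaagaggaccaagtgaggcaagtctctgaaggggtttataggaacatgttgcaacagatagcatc
Pilra: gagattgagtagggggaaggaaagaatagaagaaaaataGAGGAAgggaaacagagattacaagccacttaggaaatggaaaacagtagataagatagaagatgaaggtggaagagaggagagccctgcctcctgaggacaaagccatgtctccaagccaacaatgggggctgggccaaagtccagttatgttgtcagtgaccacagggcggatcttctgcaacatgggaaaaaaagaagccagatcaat
In Siglece all 3 matches read TTCCTC, and in Pirb 2 read GAGGAA and 1 reads TTCCTC. A match describes the letters and not a bound site.

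Levels are FPKM as deposited by the authors, a fragment count corrected for transcript length and for the size of the library, so genes can be set side by side. Differences are in log2(FPKM + 1), first group minus second, with the standard error (SE) of a limma fit to all 12 libraries. Adding 1 understates the change of genes with low FPKM. The depth is unknown. The 12 macrophage markers had a mean log2 level of 8.46 to 8.59 in primed MSC, 8.25 to 8.46 in control MSC, 8.01 to 8.09 in IUA and 6.93 to 7.20 in Sham libraries, and none was at 0 in any library. Their FPKM summed to 32560.1 to 34429, 32661 to 35773 and 31819 to 34418 in the primed MSC, control MSC and IUA libraries, and to 10798 to 13319.9 in Sham. The 13 uterine epithelium markers summed to 1451 to 2312, 1485 to 3738 and 1541 to 5071 FPKM in the same 3 groups and to 7649.9 to 13203 in Sham, with none at 0. In bulk cells, fewer cells of a type and less RNA per cell cannot be told apart. IUA replicate 3 stood apart in its Spearman correlation of level with transcript GC content, which was -0.213 against -0.124 to -0.051 in the other libraries. It had the lowest level of the 3 IUA libraries for 9 of the 10 genes, and the share over all tested genes was not counted. Values relative to the macrophage markers, with the mean level of the epithelium markers as a covariate, or with a GC correction are given beside results that these settings move. The mean log2 level of the epithelium markers was 6.89 to 7.65 in Sham and 4.91 to 6.24 in the other groups. In comparisons with Sham the covariate is thus largely confounded with the group. A call lost or kept there does not say what part the epithelium had, which was not tested.

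**Figure D1:**
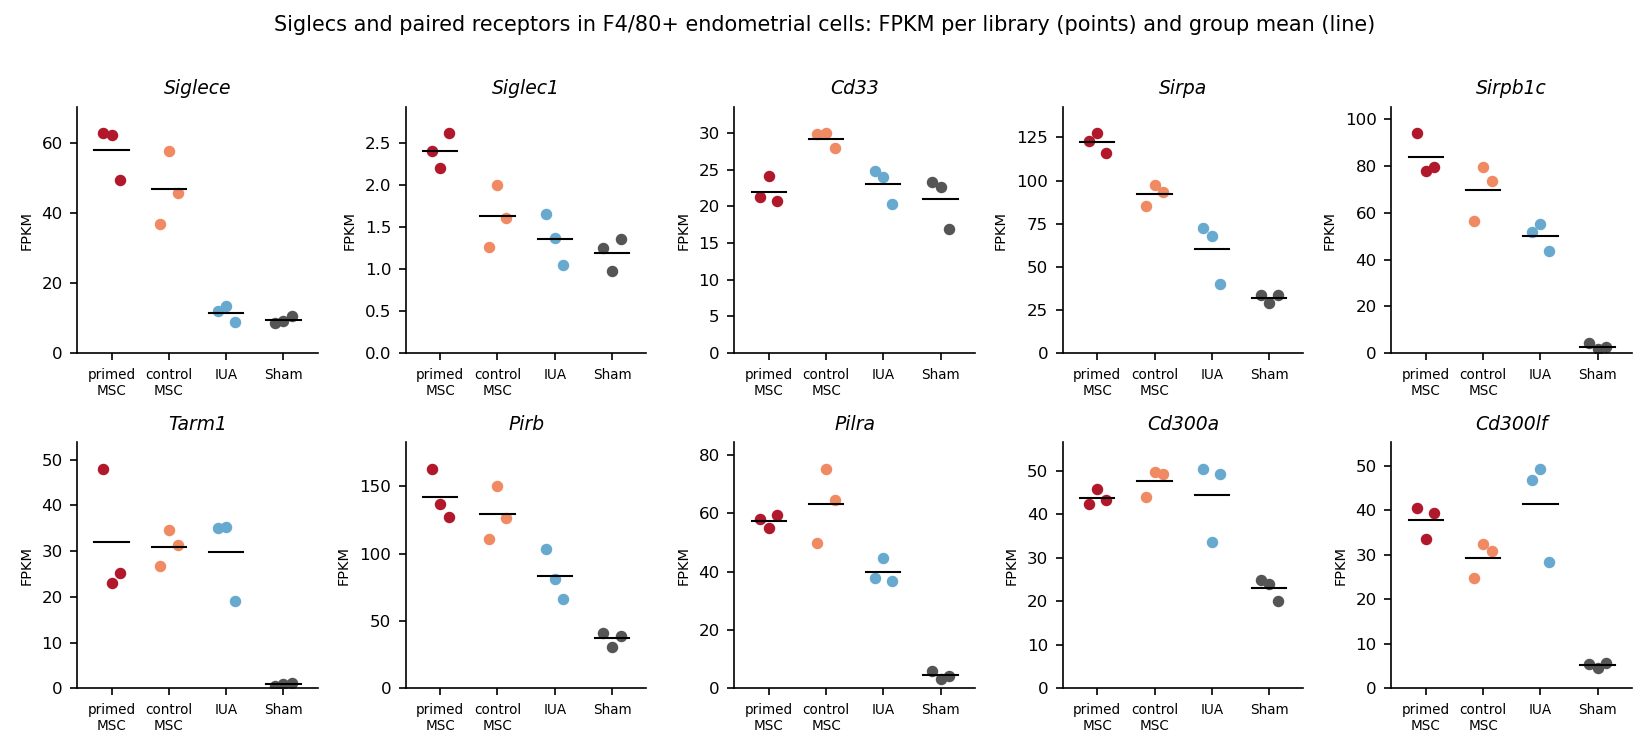
FPKM of each of the 10 receptor genes (vertical axes, linear, starting at 0) in the 3 libraries of each group, with points for libraries and a line for the group mean. Siglece is at 36.92 FPKM or more in all 6 MSC libraries and at 13.5 or less in all IUA and Sham libraries, whereas Sirpb1c, Tarm1, Pilra and Cd300lf are low in Sham alone.

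Siglece was the receptor whose level in the MSC groups differed most from IUA. It encodes Siglec-E, an inhibitory sialic acid receptor of mouse myeloid cells that carries the phosphatase-recruiting tail motif. It had 62.78, 62.17 and 49.46 FPKM in primed MSC libraries, 36.92, 57.69 and 45.76 in control MSC libraries, 11.93, 13.5 and 8.92 in IUA libraries and 8.57, 9.16 and 10.73 in Sham libraries. Every MSC library lay above every IUA and Sham library, the MSC groups overlapped each other, and so did IUA and Sham. The gene lies on chromosome 7, 43651070 to 43660161 (mm10). The log2 difference was 2.26 ± 0.18 for primed MSC against IUA (95% interval 1.86 to 2.65) and 1.94 ± 0.18 for control MSC against IUA (1.54 to 2.33). Among 11604 tested genes it was the gene with the 10th largest positive difference in each of these comparisons. For primed against control MSC the difference was 0.32 ± 0.18 (-0.07 to 0.72), and for IUA against Sham it was 0.24 ± 0.18 (-0.16 to 0.63). Siglece made up 8.78% to 10.6% of the summed FPKM of the 10 genes in primed MSC and 7.92% to 9.47% in control MSC libraries, against 2.74% to 3.33% in IUA and 5.76% to 7.93% in Sham libraries. Relative to the mean level of the macrophage markers in the same library, the differences from IUA were 1.79 for primed MSC and 1.61 for control MSC, with the groups still apart, and the difference of IUA from Sham was -0.77.

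The other 2 Siglec members differed less. Siglec1 encodes sialoadhesin (CD169), a large adhesion Siglec of tissue macrophages, at chromosome 2, 131069220 to 131086765. It was at 2.40, 2.20 and 2.61 FPKM in primed MSC, 1.26, 2.00 and 1.61 in control MSC, 1.65, 1.37 and 1.05 in IUA and 1.25, 0.97 and 1.35 in Sham libraries. The primed MSC libraries were the 3 highest of all 12, and the other groups overlapped. Its log2 difference for primed MSC against IUA was 0.54 ± 0.15, and with a correction for transcript GC content it was 0.25. The transcript of Siglec1 has a GC content of 56.7%, at the 87.4th percentile of tested genes.

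Cd33 encodes the mouse counterpart of human CD33, a sialic acid receptor of myeloid cells, at chromosome 7, 43524216 to 43544428. It had 21.25, 24.1 and 20.76 FPKM in primed MSC, 29.83, 29.97 and 27.99 in control MSC, 24.86, 24.01 and 20.4 in IUA and 23.35, 22.59 and 16.91 in Sham libraries. The control MSC libraries lay above all others, by a narrow span, and primed MSC, IUA and Sham overlapped. The log2 difference was -0.40 ± 0.13 for primed against control MSC (-0.68 to -0.11) and 0.33 ± 0.13 for control MSC against IUA (0.05 to 0.62). Relative to the macrophage markers, Cd33 was lower in each of the 3 adhesion groups than in Sham, with log2 differences of -1.40, -0.86 and -0.87 for primed MSC, control MSC and IUA. As deposited these differences were 0.08, 0.48 and 0.14, since the markers themselves were higher in the adhesion groups.

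Sirpa and Pirb, a pair of inhibitory receptors, were highest in primed MSC and lowest in Sham. Sirpa encodes the Cd47 receptor that restrains engulfment, at chromosome 2, 129592835 to 129632228. It had 122.71, 127.36 and 116.13 FPKM in primed MSC, 85.5, 97.55 and 93.45 in control MSC, 72.42, 67.89 and 40.24 in IUA and 33.45, 29.17 and 33.42 in Sham libraries. No group overlapped its neighbour in this order. The log2 differences were 1.05 ± 0.18 for primed MSC against IUA, 0.65 ± 0.18 for control MSC against IUA, 0.40 ± 0.18 for primed against control MSC and 0.85 ± 0.18 for IUA against Sham. IUA replicate 3 was far below the other 2 IUA libraries, and with the GC correction and without that library the primed MSC difference was 0.71 and the control MSC difference 0.35. Relative to the macrophage markers the IUA and Sham libraries overlapped, with a difference of -0.16.

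Pirb encodes paired immunoglobulin-like receptor B, the inhibitory PIR, at chromosome 7, 3711409 to 3720391. It had the highest mean level of the 10 genes in primed MSC, control MSC, IUA and Sham. Its values were 162.98, 136.36 and 127.19 FPKM in primed MSC, 110.62, 150.4 and 126.58 in control MSC, 103.29, 81.27 and 65.93 in IUA and 41.03, 30.69 and 39.15 in Sham libraries. Primed and control MSC overlapped, both lay above IUA, and IUA lay above Sham. The log2 difference was 0.78 ± 0.18 for primed MSC against IUA, 0.64 ± 0.18 for control MSC against IUA and 1.14 ± 0.18 for IUA against Sham. About 34% of the 50-base stretches of its transcripts also occur in transcripts of other genes, 17.7% in Gm14548, so the authors' counting may have split reads between them.

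Sirpb1c, Tarm1, Pilra and Cd300lf were low in Sham and far higher in every adhesion group. Sirpb1c belongs to the SIRP beta genes, which encode the Tyrobp-coupled counterparts of Sirpa, at chromosome 3, 15795145 to 15848528. It had 94.02, 78.11 and 79.81 FPKM in primed MSC, 56.53, 79.66 and 73.76 in control MSC, 51.77, 55.03 and 43.83 in IUA and 4.13, 1.55 and 2.53 in Sham libraries. Sham stood far below the rest, both MSC groups lay above IUA, and they overlapped each other. The log2 difference of IUA from Sham was 3.83 ± 0.22, the 13th largest of all tested genes. For primed MSC against IUA it was 0.73 ± 0.22 (0.26 to 1.20), and for control MSC against IUA 0.46 ± 0.22 (-0.01 to 0.93). Its 50-base stretches are shared with other genes to 46.1%, mostly with Sirpb1b, so its level is uncertain.

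Tarm1 encodes a receptor of myeloid cells that signals through Fcer1g, at chromosome 7, 3486500 to 3502624. It had 48.07, 23.03 and 25.23 FPKM in primed MSC, 26.87, 34.61 and 31.33 in control MSC, 35.08, 35.4 and 19.21 in IUA and 0.60, 0.89 and 1.08 in Sham libraries. The 3 adhesion groups overlapped one another, with primed MSC replicate 1 the highest library and IUA replicate 3 the lowest of them, and Sham lay far below. The log2 difference of IUA from Sham was 4.01 ± 0.28, the 9th largest of all tested genes, and those of primed and control MSC from IUA were 0.07 ± 0.28 and 0.09 ± 0.28. Their 95% intervals ran from -0.53 to 0.67 and from -0.51 to 0.69. Tarm1 shares a stretch of the genome on the same strand with the gene Gm44165, which the counting may not have kept apart.

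Pilra encodes the inhibitory paired type 2 receptor, which binds sialylated glycoproteins, at chromosome 5, 137821952 to 137836281. It had 57.97, 54.83 and 59.29 FPKM in primed MSC, 49.93, 75.36 and 64.57 in control MSC, 37.89, 44.59 and 36.78 in IUA and 5.95, 3.03 and 4.32 in Sham libraries. Both MSC groups lay above IUA and overlapped each other, and IUA lay above Sham. The log2 difference was 2.94 ± 0.19 for IUA against Sham, 0.52 ± 0.19 for primed MSC against IUA and 0.64 ± 0.19 for control MSC against IUA. In the scaled profile over the 12 libraries Pilra and Sirpb1c were the most alike of all pairs among the 10 genes, with a mean absolute difference of 0.069 SD.

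Cd300lf and Cd300a, inhibitory receptors for lipids of dying cells, overlapped IUA in both MSC groups. Cd300lf, at chromosome 11, 115116214 to 115133992, had 40.4, 33.47 and 39.34 FPKM in primed MSC, 24.72, 32.32 and 30.9 in control MSC, 46.8, 49.31 and 28.3 in IUA and 5.53, 4.54 and 5.61 in Sham libraries. Primed MSC lay above control MSC, and each MSC group overlapped IUA through IUA replicate 3. The log2 difference was 2.73 ± 0.19 for IUA against Sham, -0.10 ± 0.19 for primed MSC against IUA and -0.46 ± 0.19 for control MSC against IUA (-0.87 to -0.04). Cd300a, at chromosome 11, 114890041 to 114904654, had 42.35, 45.84 and 43.28 FPKM in primed MSC, 44.06, 49.62 and 49.26 in control MSC, 50.5, 33.56 and 49.26 in IUA and 25, 23.87 and 20.18 in Sham libraries. The 3 adhesion groups overlapped and lay above Sham. The log2 difference was 0.90 ± 0.15 for IUA against Sham, 0.00 ± 0.15 for primed MSC against IUA (-0.32 to 0.32) and 0.12 ± 0.15 for control MSC against IUA (-0.20 to 0.44). Cd300lf and Pilra overlap Rab37 and Zcwpw1, which lie on the other strand. The overlap was taken from whole gene spans, introns included, and shared exons were not looked for. The library protocol does not mark the strand, so reads from any exon stretch shared by both genes could not be told apart.

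**Figure D2:**
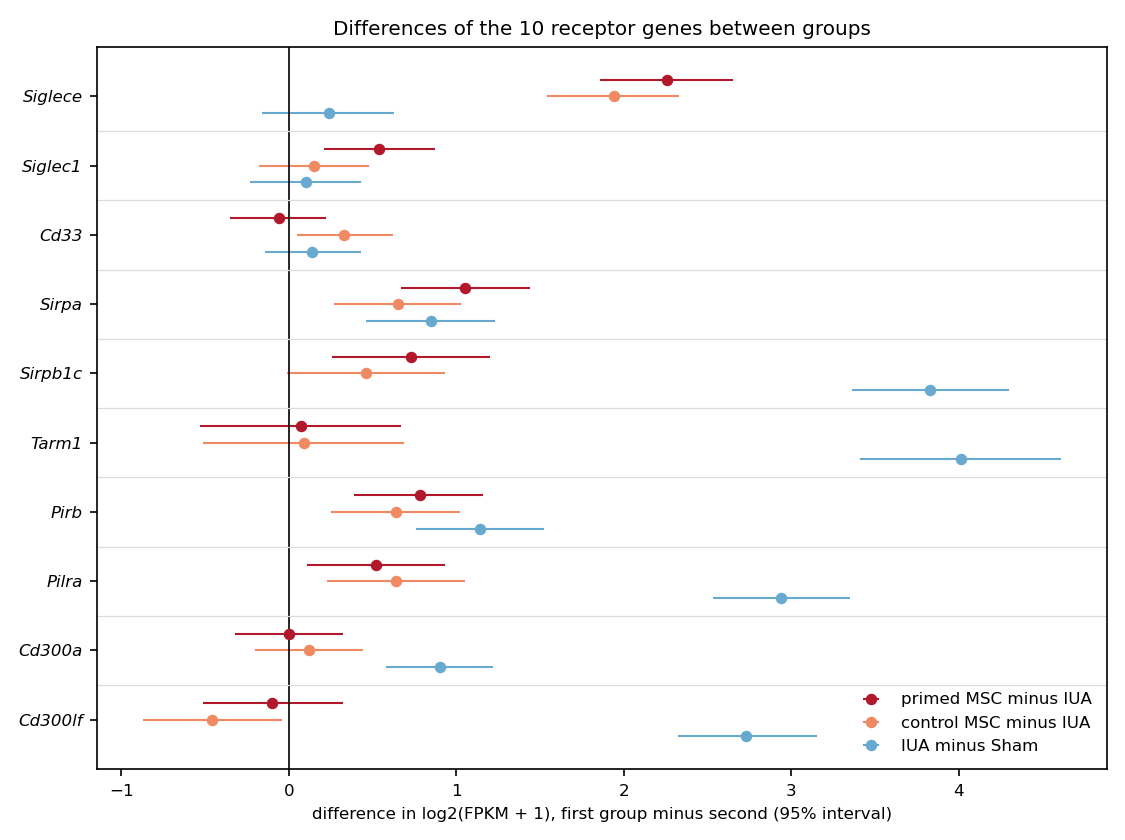
Log2 difference of each receptor gene (rows) with its 95% interval, for primed MSC minus IUA, control MSC minus IUA and IUA minus Sham (colours). Siglece lies at 2.26 and 1.94 in the MSC comparisons and at 0.24 in IUA minus Sham, and Tarm1 shows the reverse, at 0.07, 0.09 and 4.01.

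Counted over the 10 genes, 5 were past an adjusted p of 0.05 and higher in primed MSC than in IUA (Siglece, Siglec1, Sirpa, Sirpb1c and Pirb), where 12.2% of all tested genes were past it and higher and 6.97% past it and lower. In control MSC against IUA Siglece alone was past it, where 0.724% of all tested genes were higher and 0.129% lower. No member was past it for primed against control MSC by limma, 3 had an unadjusted p under 0.05, and 0.0776% and 0.0345% of all tested genes were past it and higher or lower. For IUA against Sham 7 were past it and higher, against 11.1% of all tested genes higher and 45.0% lower. With the epithelium covariate, which is largely confounded with Sham, 4 of the 7 stayed past it, and Sirpa, Pirb and Cd300a did not. In that fit 2.65% of all tested genes were higher and 4.11% lower. The 1291 genes higher and 5226 lower behind the 11.1% and 45.0% became 2239 and 3087 under median-ratio scaling. That scaling moved the all-gene median from -0.35 to -0.09. For control MSC and primed MSC against Sham 9 each were past it and higher, against 14.1% and 14.5% of tested genes higher and 42.7% and 45.0% lower. No member was past it and lower in any of the 6 comparisons by limma. Against Sham, the log2 differences of primed MSC and control MSC were 4.56 and 4.29 for Sirpb1c, 4.09 and 4.11 for Tarm1, 3.46 and 3.58 for Pilra, 2.64 and 2.28 for Cd300lf and 2.49 and 2.17 for Siglece. They were 1.92 and 1.78 for Pirb, 1.90 and 1.50 for Sirpa, 0.90 and 1.02 for Cd300a, 0.64 and 0.25 for Siglec1 and 0.08 and 0.48 for Cd33. The median log2 difference over the 10 genes was 0.53 for primed MSC against IUA, 0.40 for control MSC against IUA, 0.20 for primed against control MSC and 1.02 for IUA against Sham, beside -0.03, 0.02, -0.03 and -0.35 over all tested genes. Comparisons with a group in common share its libraries, so their values are not independent.

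Taken relative to the macrophage markers of the same library, some of the 10 genes stayed apart between groups and others overlapped. The subtraction moves every gene of a library by the same amount. For IUA against Sham it lowers all genes, whose median was -0.35 as deposited. No share of all genes was counted on this scale. A place below Sham or IUA is thus relative to the markers and not particular to these genes. For IUA against Sham, Tarm1, Sirpb1c, Pilra and Cd300lf stood at 3.00, 2.82, 1.93 and 1.72 and stayed apart from Sham. Siglec1, Cd33 and Siglece stood at -0.91, -0.87 and -0.77, below Sham, and Sirpa, Pirb and Cd300a overlapped Sham. For primed MSC against IUA, Siglece and Sirpa stayed above IUA, at 1.79 and 0.58. Cd33 and Cd300a lay below it, at -0.53 and -0.47, whereas as deposited they differed by -0.06 and 0.00. Of the 12 macrophage markers, 6 were themselves past the threshold and higher by limma in primed MSC against IUA, and 0 were lower. For control MSC against IUA 1 marker was higher and 0 lower, and for IUA against Sham 10 were higher and 1 lower. For control MSC against IUA, Siglece and Sirpa stayed above, at 1.61 and 0.33, and Cd300lf lay below, at -0.78.

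**Figure D3:**
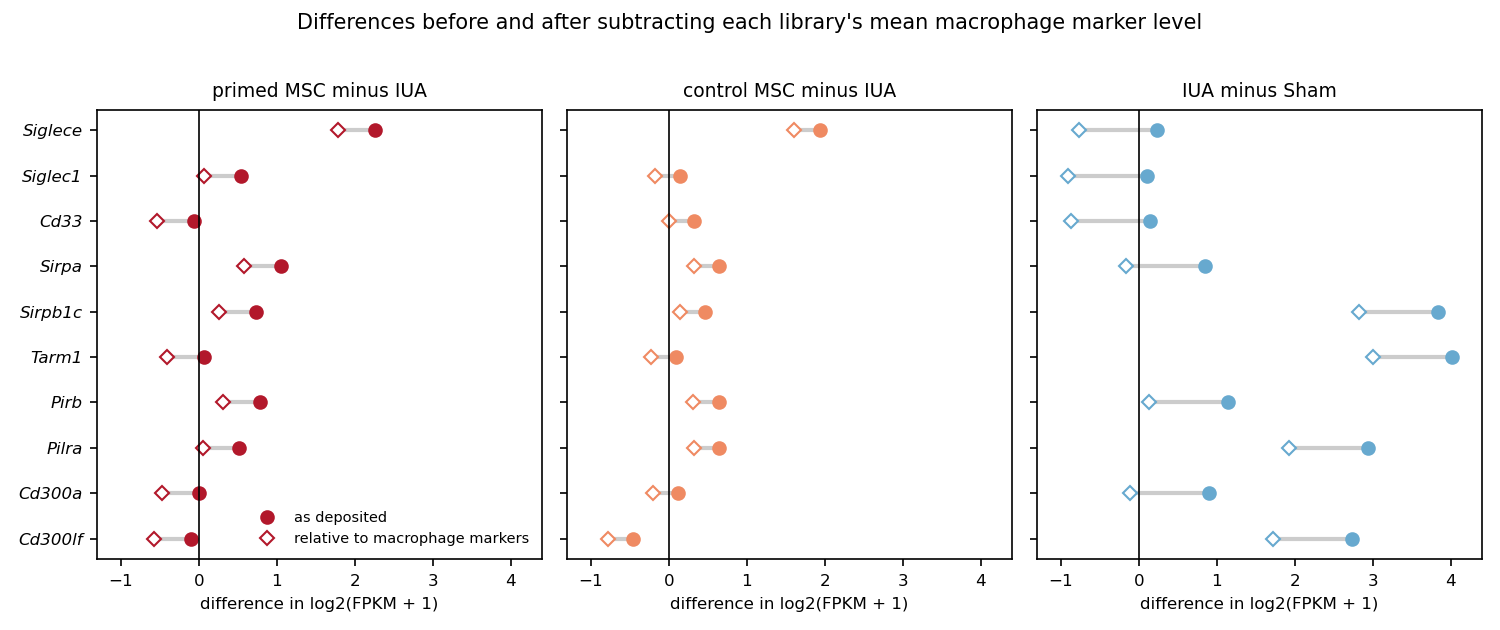
Log2 difference of each receptor gene as deposited (filled circles) and after subtracting the library's mean macrophage marker level (open diamonds), for primed MSC minus IUA, control MSC minus IUA and IUA minus Sham. Siglece keeps 1.79 and 1.61 in the MSC panels, and in the Sham panel Siglec1, Cd33 and Siglece move across 0 to -0.91, -0.87 and -0.77, and Sirpa and Cd300a to -0.16 and -0.11, while Tarm1 keeps 3.00.

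Some of these receptors also occur on neutrophils. The summed FPKM of the 8 neutrophil markers was higher in the adhesion groups than in Sham, and most of that sum was Ltf. The sums were 259.7 to 1187 in primed MSC and 505 to 1016 in control MSC libraries. They were 277 to 321 in IUA and 42.1 to 87.1 in Sham libraries. Ltf averaged 716 FPKM in primed MSC, 683 in control MSC, 265 in IUA and 48.8 in Sham. The mean of Retnlg went the other way, at 5.32, 5.68, 11.5 and 17.1 FPKM in the same order, with IUA and Sham libraries overlapping. The sum therefore describes Ltf more than the other markers. Mean levels of Ngp were 2.72, 1.70 and 10.6 FPKM in primed MSC, control MSC and IUA, and those of Camp 0.667, 0.460 and 3.33. The means of Mmp8 and Cxcr2 were higher in both MSC groups than in IUA. Whether the Ltf RNA came from neutrophils was not tested. The defining marker Ly6g was at 0.220 to 0.480 FPKM in primed MSC, 0.05 to 0.120 in control MSC and 0 to 0.690 in IUA libraries, and at 0 in all 3 Sham libraries. Of 6 tested neutrophil markers, 4 rose in IUA against Sham by limma at an adjusted p under 0.05, and 2 fell in primed MSC against IUA and 1 in control MSC against IUA. The 4 eosinophil markers summed to 1.35 to 1.72 FPKM in primed MSC, 1.83 to 2.77 in control MSC, 3.43 to 7.18 in IUA and 2.76 to 3.83 in Sham libraries. Siglecf, the eosinophil Siglec, was at a mean of 0.533, 0.473, 0.493 and 0.173 FPKM in these groups, too low to be tested. The part of neutrophils or eosinophils in the receptor values was not tested.

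Related receptors of the same families were tested in the same fit. The lists hold 46 genes, of which 37 were in the table and 28 were tested, with the other 9 too low. In IUA against Sham 18 of the 28 (64.3%) rose and 2 (7.14%) fell, beside 11.1% and 45.0% of all tested genes, and the 28 had a median log2 difference of 1.14 beside -0.35. With the epithelium covariate 12 (42.9%) rose and 1 (3.57%) fell, beside 2.65% and 4.11%. All 4 TREM genes rose, and Trem1, an activating receptor that couples to Tyrobp, averaged 45.4 FPKM in IUA and 3.84 in Sham (log2 difference 3.20 ± 0.23, adjusted p = 2.93e-06 by limma). Both SIRP beta genes, both PILR beta genes, 5 of 9 CD300 genes and 4 of 6 PIR and LILR genes rose too. With the covariate all 4 TREM genes and the 4 PIR and LILR genes stayed past the threshold, while 1 of 2 SIRP beta genes, 1 of 2 PILR beta genes and 2 of 9 CD300 genes did. The calls of Sirpb1a (adjusted p = 0.238 by limma), Pilrb1 (0.0757) and Cd200r4 (0.0668) were lost there, as were those of Cd300e, Cd300lb and Cd300ld3. Of the 2 relatives that fell, Lilra5 lost its call there (adjusted p = 0.19 by limma). Over the alternative settings Lilra5 passed in 11 of 23 and Cd300lb in 12 of 24. Cd300ld, a lipid receptor of the CD300 family, averaged 110.0 FPKM in IUA and 27.7 in Sham (1.96 ± 0.13, adjusted p = 1.94e-06). Siglech, a Siglec best known from plasmacytoid dendritic cells, averaged 1.16 FPKM in IUA and 5.38 in Sham and fell by 1.59 on the log2 scale (SE 0.18, adjusted p = 5.99e-05).

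In primed MSC against IUA 3 of the 28 relatives (10.7%) rose and 1 (3.57%) fell, which is near the 12.2% and 6.97% of all tested genes. In control MSC against IUA 1 (3.57%) rose, beside 0.724% of all tested genes. Without primed MSC replicate 2, or without replicate 3, 2 of the 28 passed in primed MSC. Over all tested genes 902 were higher and 352 lower in the first of these fits, and 864 and 508 in the second. Sirpb1a, which couples to Tyrobp, had 52.43, 47.53 and 36.62 FPKM in primed MSC, 22.71, 43.63 and 41.07 in control MSC, 15.46, 9.33 and 16.84 in IUA and 4.91, 3.63 and 4.68 in Sham libraries. All MSC libraries lay above IUA, and IUA above Sham. It rose by 1.67 ± 0.26 in primed MSC against IUA (adjusted p = 0.00202 by limma), and by 1.29 ± 0.26 in control MSC against IUA (adjusted p = 0.0427), a call that held in 8 of 24 alternative settings. Sirpb1b rose by 0.63 ± 0.19 in primed MSC against IUA (adjusted p = 0.0386), which held in 11 of 24 settings. Its 50-base stretches are shared with other genes to 58%, and those of Sirpb1a to 40.4%. Cd300e, an activating CD300 receptor of monocytes, averaged 4.99 FPKM in primed MSC, 4.49 in control MSC, 1.64 in IUA and 0.430 in Sham, and rose by 1.19 ± 0.26 in primed MSC against IUA (adjusted p = 0.0101). Lilr4b, a near copy of the inhibitory Lilrb4a, fell by 0.48 on the log2 scale in primed MSC against IUA (SE 0.12, adjusted p = 0.021), which held in 18 of 24 settings. Lilr4b shares 24.5% of its 50-base stretches with other genes, 24.1% with Lilrb4a, and overlaps Gm49339 on the same strand. No relative was past the threshold for primed against control MSC by limma, and 1 had an unadjusted p under 0.05. Of the PILR beta genes, the activating counterparts of Pilra, Pilrb1 differed by 0.41 ± 0.29 and Pilrb2 by 0.11 ± 0.17 in primed MSC against IUA, which did not pass (adjusted p = 0.343 and 0.688 by limma).

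**Figure D4:**
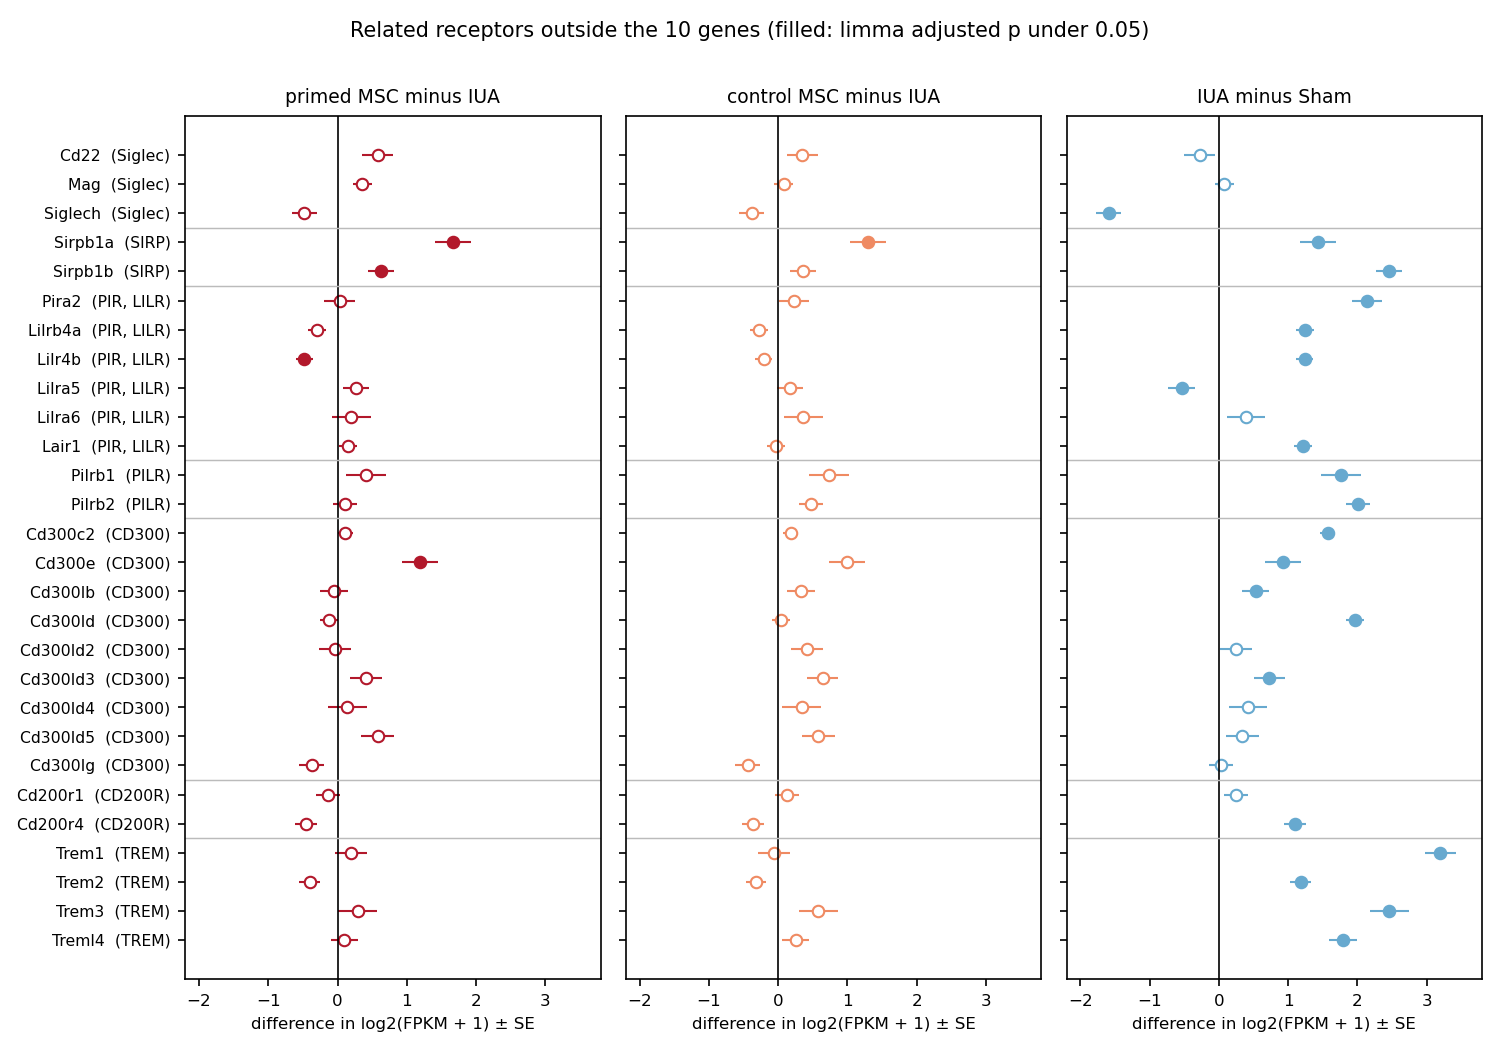
Log2 difference (± SE) of the 28 tested relatives, grouped by family (rows), in primed MSC minus IUA, control MSC minus IUA and IUA minus Sham (panels, with filled points for an adjusted p under 0.05). Most points in the IUA minus Sham panel are filled and above 0, while 4 are filled for primed MSC and 1, Sirpb1a, for control MSC.

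The signalling partners were tested in the same fit. All 3 adaptors rose in IUA against Sham, and with the epithelium covariate Tyrobp and Fcer1g stayed past the threshold while Hcst did not (adjusted p = 0.0866 by limma). Tyrobp averaged 762 FPKM in IUA and 309 in Sham (1.33 ± 0.15, adjusted p = 5.51e-05 by limma), and Fcer1g averaged 1471 FPKM in IUA and 604 in Sham (1.30 ± 0.16, adjusted p = 0.000111). Neither passed in primed MSC against IUA, with differences of 0.16 ± 0.15 and 0.38 ± 0.16, and none of the 3 adaptors passed for control MSC against IUA by limma, where 1 had an unadjusted p under 0.05. Of the 3 phosphatases, Ptpn6 and Inpp5d rose in both MSC groups against IUA, and Ptpn11 differed by 0.10 ± 0.11 in primed MSC and 0.06 ± 0.11 in control MSC. Ptpn6, the phosphatase that inhibitory tails recruit, had 51.61, 56.99 and 57.17 FPKM in primed MSC, 41.44, 65.52 and 51.55 in control MSC, 26.56, 26.32 and 26.06 in IUA and 12.15, 11.88 and 10.3 in Sham libraries. Every MSC library lay above every IUA library, and every IUA library above every Sham library. Ptpn6 rose by 1.04 ± 0.14 in primed MSC against IUA (adjusted p = 0.00116) and by 0.95 ± 0.14 in control MSC against IUA (adjusted p = 0.0153, passing in 20 of 24 settings). Inpp5d, a lipid phosphatase, rose by 1.36 ± 0.17 in primed MSC against IUA (adjusted p = 0.000727 by limma) and by 0.81 ± 0.17 in control MSC against IUA (adjusted p = 0.0498, passing in 3 of 24 settings). It was at a mean of 35.4 FPKM in primed MSC, 23.8 in control MSC, 13.4 in IUA and 13.4 in Sham. The kinases Syk, Lyn, Fgr and Btk rose in IUA against Sham. With the epithelium covariate Fgr alone of the 4 stayed past the threshold, and Syk, Lyn and Btk did not (adjusted p = 0.755, 0.0993 and 0.137 by limma), with Syk passing in 17 of 24 settings. Syk and Lyn rose in primed MSC against IUA, by 0.88 ± 0.17 and 0.62 ± 0.12 (adjusted p = 0.00621 and 0.00593 by limma). None of these 4 passed in control MSC against IUA by limma, where 3 had an unadjusted p under 0.05.

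**Figure D5:**
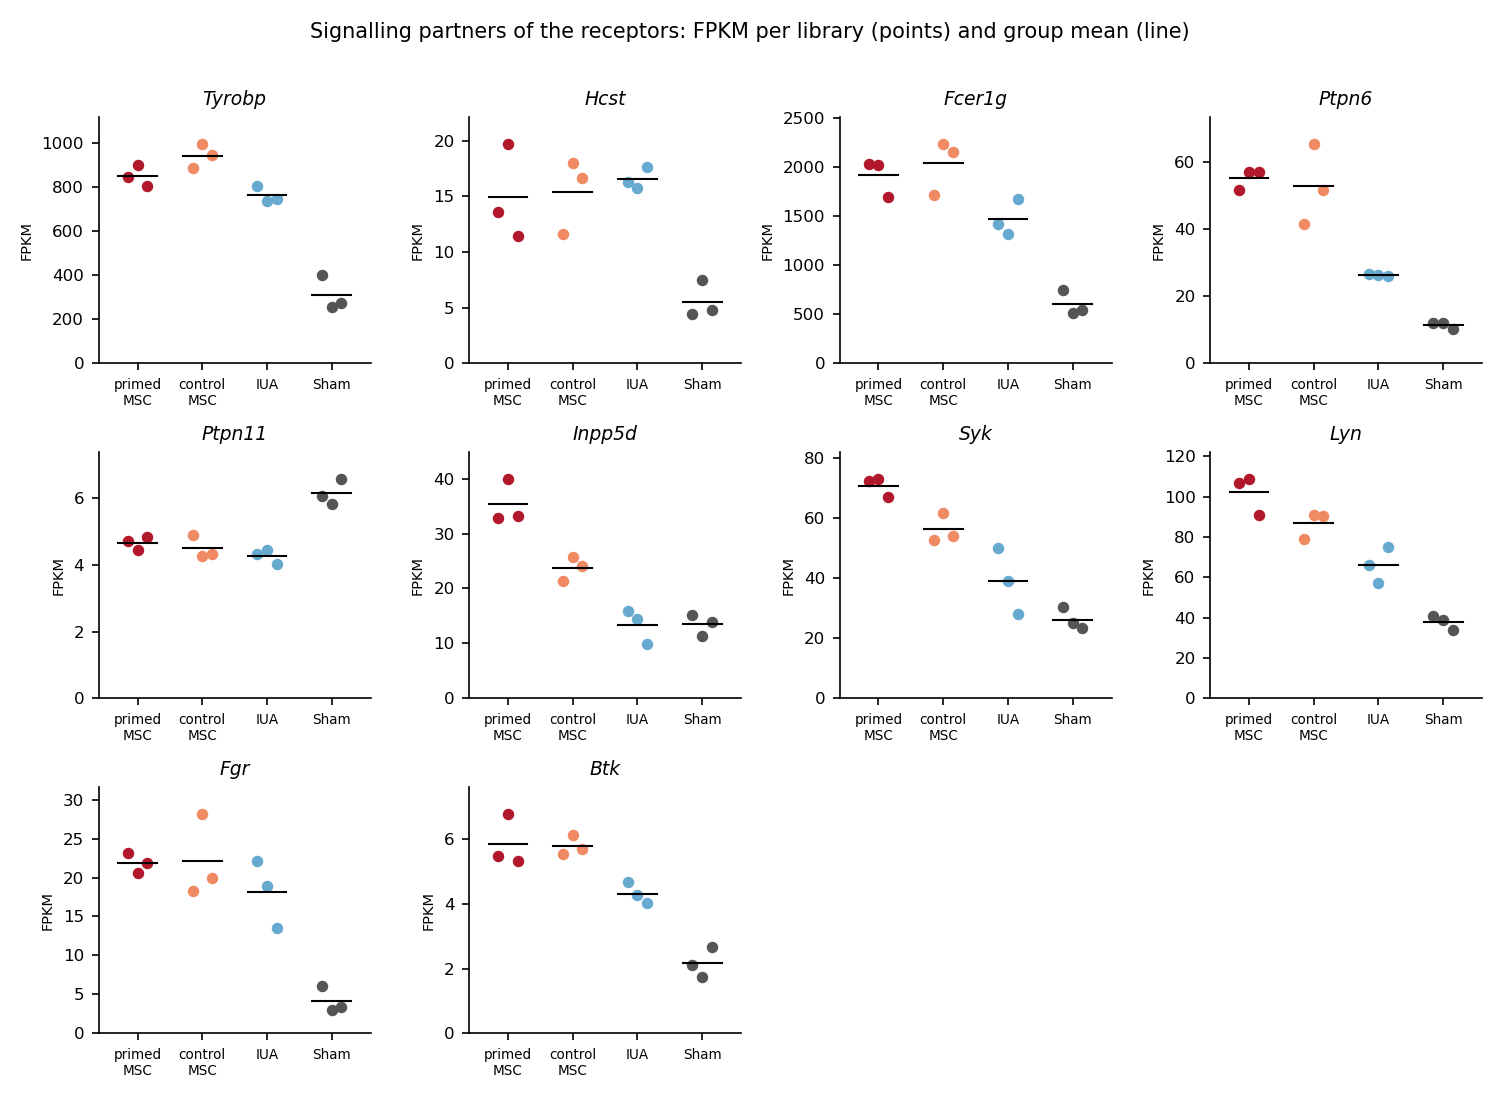
FPKM of 3 adaptors, 3 phosphatases and 4 kinases that act downstream of the receptors (vertical axes, linear, starting at 0), with a point for each library and a line for the group mean. Ptpn6 is at 41.44 or more in all MSC libraries and at 26.56 or less in IUA and Sham, while Tyrobp, Hcst and Fcer1g are low in Sham alone.

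Ligands of the receptors were also measured in these cells. Cd47, the ligand of Sirpa, averaged 261 FPKM in primed MSC, 257 in control MSC, 243 in IUA and 155 in Sham. It rose by 0.65 ± 0.08 in IUA against Sham (adjusted p = 0.000117 by limma) and differed by 0.10 ± 0.08 in primed MSC against IUA (adjusted p = 0.411). Of 7 tested ligand genes, 1 (14.3%) rose and 1 (14.3%) fell in primed MSC against IUA, beside 12.2% and 6.97% of all tested genes. Spn averaged 0.930 FPKM in primed MSC and 0.177 in IUA, and Cd200 36.5 and 79.0. With the epithelium covariate they differed by 0.72 and -1.07 (adjusted p = 0.0265 and 0.011 by limma). B2m, the light chain of the MHC class I that Pirb binds, rose by 0.95 ± 0.14 in IUA against Sham (adjusted p = 0.000295 by limma), a call lost with the epithelium covariate (adjusted p = 0.0641), under which Cd47 stayed past the threshold. Of 20 tested genes that make, transfer or remove sialic acid, 3 rose and 8 fell in IUA against Sham (15.0% and 40.0%), near the 11.1% and 45.0% of all tested genes. In primed MSC against IUA 3 rose and 1 fell (15.0% and 5.00%), near the 12.2% and 6.97% of all tested genes. With the epithelium covariate none of the 11 calls for IUA against Sham remained by limma, and 4 of the 20 had an unadjusted p under 0.05. Neu1, a lysosomal sialidase, averaged 41.5 FPKM in primed MSC, 39.9 in control MSC and 26.0 in IUA, and rose by 0.66 ± 0.13 in primed MSC against IUA (adjusted p = 0.00637). Of 12 tested epithelium markers, 12 fell in IUA against Sham.

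The genes with the level pattern most like 3 of the receptors were found among all tested genes by the mean absolute difference of scaled log2 profiles over the 12 libraries. For Siglece they were Zdhhc6 (0.127 SD), Fcrl5 (0.148), Slc13a3 (0.148), Itgal (0.148) and Cfl1 (0.162). Slc13a3 averaged 123 FPKM in primed MSC, 74.3 in control MSC, 4.87 in IUA and 4.69 in Sham. For Siglec1 they were Sdc3, Ccnf, Ttc7, Syn1 and Tbc1d9, at 0.211 to 0.268 SD, and for Pirb they were Nckap1l, Irak3, Dock2, Lcp1 and Aldh3b1, at 0.122 to 0.147 SD. Cd33 was the least alike of the 10, at 0.794 to 1.128 SD from each of the other genes.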

How the data were processed

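The deposited table gives 1 FPKM value per gene and library, as the authors made it, with 2 decimals. Per the submitters' processing notes the build was mm10 and the tools included RSEM, StringTie, HISAT2, DESeq2 and fastp, with no version or role given. Library FPKM summed to 505459.87 to 563750.97. A search for the steps that whole reads would leave did not recover them, so the depth is unknown and no count test was run. For 27 genes a symbol turned into a date was looked up again by identifier.

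Levels were taken as log2(FPKM + 1). The filter asked for FPKM of 1 or more in 3 or more libraries and left 11604 genes, and limma 3.58.1 in R 4.3.3 fitted 1 mean per group to all 12 libraries with an empirical Bayes trend. Tests were two-sided with Benjamini-Hochberg adjustment over all tested genes and a threshold of 0.05. Intervals are at 95%. The fit was tested on simulated data. The members and lists were chosen with earlier results of these data known. The rule for naming genes took all 10 members, then per comparison up to 8 related receptors and up to 6 signalling or ligand genes of smallest p. It also took Siglecf, Sirpb1a, Sirpb1b, Pilrb1, Pilrb2, Tyrobp, Fcer1g, Ptpn6 and Cd47. For some genes that the rule took no values are given in the text, among them Pira2, Trem2, Trem3, Lair1 and Cd22. Ly6g, Ltf and the remaining adaptors, kinases and receptor relatives named in counts were added after their values were seen.

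Alternatives were pseudocounts of 0.1 and 0.5, no filter or one at FPKM 5, rescaling to TPM, median ratios or quantiles, the compared groups alone, a replicate block, a GC correction (lowess, span 0.3), an epithelium covariate, values relative to macrophage markers and leaving out each library. The GC correction without IUA replicate 3 was added after seeing the data. Nothing states that replicate numbers pair the libraries, and the values do not settle it. Deviations of same-numbered libraries correlated at -0.293 to 0.288, and those of other pairs at -0.326 to 0.269. Overlap of 50-base stretches and loci used GENCODE M21 transcripts, and promoters the RefSeq table. Proteins were not used here. Of the listed signalling genes, 1 is not reported here.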

Additional observations from a re-analysis of the deposited data

How the results depend on the processing

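Siglece was past the threshold and higher in both MSC groups than in IUA in all 24 settings run, with differences of 2.05 to 2.38 for primed MSC and 1.75 to 2.09 for control MSC. The members were chosen with results of these libraries known. Their passing in refits of the same libraries, here and below, is therefore description and not support. Of 1494 member values under an alternative, 39 changed sign, 16 of them relative to macrophage markers. Of the 39, 33 were of differences not past the threshold, of at most 0.25 as deposited: Siglec1 and Cd33 for IUA against Sham, for example, went to -0.11 and -0.04 with the epithelium covariate. The other 6, past the threshold as deposited, changed sign relative to macrophage markers: Sirpa at -0.16 and Cd300a at -0.11 for IUA against Sham, Cd33 at -0.86 and Cd300a at -0.31 for control MSC against Sham, and Siglec1 at -0.84 and Cd300a at -0.57 for primed MSC against Sham. The median of all genes for IUA against Sham, -0.35 as deposited, was -0.09 under median-ratio and 0.00 under quantile scaling, and the calls, 1291 higher and 5226 lower, became 2239 and 3087 or 2594 and 2645. Differences from Sham are to be read against that shift.

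With the epithelium covariate, members past the threshold for IUA against Sham numbered 4 in place of 7, and related receptors 13 in place of 20, with 13 each for control MSC (23) and primed MSC (20) against Sham. All-gene calls for IUA against Sham were 307 higher and 477 lower in that fit. The covariate is largely confounded with Sham in these comparisons. For primed MSC against IUA, related receptors numbered 4, against 2 at a pseudocount of 0.1 and 7 with the covariate. Leaving out 1 library gave 2 to 5, with 2 without primed MSC replicate 2 or 3. Members there numbered 5, against 2 with the GC correction without IUA replicate 3. Leaving out 1 library gave 2 to 6 members, with 2 without primed MSC replicate 1 and 3 without primed MSC replicate 2 or 3 or IUA replicate 3. Calls over all tested genes moved in the same refits, from 1410 higher and 809 lower as deposited. They were 747 and 391 with the GC correction without IUA replicate 3, and 862 and 294 without primed MSC replicate 1. Without primed MSC replicate 2, primed MSC replicate 3 or IUA replicate 3 they were 902 and 352, 864 and 508, and 933 and 401. With the covariate they were 1553 and 1032. Siglece and Sirpa passed in every setting, Pirb in 22 of 24, Sirpb1c in 15 of 24 and Siglec1 in 14 of 23. For control MSC against IUA, the 1 related receptor became 0 with no filter, median-ratio or quantile scaling, the compared groups alone, or the GC correction without IUA replicate 3, 2 with the covariate, and 0 to 2 with 1 library left out. It stayed at 1 without IUA replicate 1 and was 2 without control MSC replicate 1. Members ranged from 1 to 3, with 3 without IUA replicate 1. All-gene calls for control MSC against IUA, 84 higher and 15 lower as deposited, were 255 and 74 without IUA replicate 1. They were 26 and 3 with no filter and 12 and 4 with the compared groups alone. For primed against control MSC members ranged from 0 to 1, with 1 without IUA replicate 3. That fit called 183 of all tested genes higher and 50 lower, in place of 9 and 4. Whether libraries with the same number are paired is not known. With the replicate block the members past the threshold for primed MSC against IUA numbered 3 and the related receptors for control MSC against IUA numbered 0. All-gene calls in that fit were 1261 higher and 668 lower for the first comparison and 40 and 3 for the second. The cause of these shifts was not tested. Of 2463 values of named related genes, 2381 kept their side and direction, 77 crossed the threshold in the same direction, and 5 changed sign without passing in either fit. Whole reads could not be recovered, so precision at low levels, as for Siglec1, is unknown.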
